A study of Homo sapiens with 9 samples.

Results

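In HMC3 cells, a small set of genes stood on one side of the vehicle control at the lower dose of a 3-compound cocktail and on the other side at the higher dose. The set was selected on these same values. A gene belonged to it when it was listed as protein_coding, had a mean count of at least 50 over the 9 libraries, and had a mean TPM (transcript abundance scaled for length and depth) at least 15% above the vehicle control at one dose and below it by the same factor at the other. Of 61544 genes listed, 10740 could meet the rule, and 72 did (0.67%). Of these, 23 (0.214%) were higher at the lower dose and lower at the higher dose, and 49 (0.456%) had the reverse order. Because both ratios to vehicle chose the genes, these ratios are given as a description, and no test is attached to them.

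HMC3 is a single human embryonic microglial clone immortalized with SV40 T antigen. The 3 vehicle (VEH) libraries came from cells given DMSO. The 3 SLO ½ libraries came from cells given 5 µM SBI-0206965, 0.5 µM O-151 and 0.5 µM Lopinavir, and the 3 SLO libraries from cells given 10 µM, 1 µM and 1 µM of the same compounds, in every case for 6 days. SBI-0206965 inhibits the autophagy kinase ULK1, O-151 the base excision repair glycosylase OGG1, and Lopinavir the processing of the Lamin A precursor. The labels name no separate cultures or batches, so the spread between libraries may be technical. Of 17 microglia markers, 14 had at most 10 counts in every library and 5 had none at all. The summed TPM of 12 mesenchymal markers ranged from 8821 to 9881 among VEH libraries, from 7888 to 8300 among SLO ½ libraries and from 7085 to 7340 among SLO libraries. Fibronectin (FN1) alone carried that order, since the other 11 summed to 3245 to 3413 among VEH, 3715 to 3777 among SLO ½ and 3785 to 3958 among SLO libraries. Sums of 7 astrocyte markers, nearly all GJA1, were 269 to 274, 377 to 416 and 489 to 540 in the same order of groups, with AQP4 at 0 in every library, those of 8 neuron markers 4.35 to 4.59, 6.94 to 7.44 and 9.44 to 10.1, and those of 6 endothelial markers 0.732 to 1.11, 3.11 to 3.72 and 5.35 to 6.46. Their part in the results below was not tested. In bulk RNA of this single line, a different share of cells that express a marker cannot be told apart from a different amount of its RNA per cell.

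A response that reverses with dose is called biphasic. Such responses are known for many drugs and stressors. The genes described here include effectors of the interferon response, which is set off by cytokines or by nucleic acids in the wrong compartment, and components of bone morphogenetic protein (BMP) signalling, in which secreted antagonists, receptors and SMAD proteins control transcription factors of the ID family.

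Most eligible genes kept their direction between doses or stayed near VEH. By the same limits 1973 genes (18.4%) were higher at both doses and 2623 (24.4%) were lower at both. A further 1140 (10.6%) were higher and 1093 (10.2%) lower at SLO only, 233 (2.17%) were higher and 682 (6.35%) lower at SLO ½ only, and 2924 (27.2%) stayed within the limits at both. The 23 genes higher at SLO ½ had a median ratio to VEH of 1.22 at SLO ½ and 0.766 at SLO, and the 49 others had 0.827 and 1.23. Over all eligible genes the medians were 0.954 and 0.968, so the middle of the TPM scale lay slightly below VEH at both doses. The balance between the 2 directions depended on that scale. Counts scaled by TMM factors gave 31 and 33 genes, DESeq2 size factors 29 and 36, TPM ratios centred on the median gene 29 and 33, and library size alone 33 and 28. The second direction held more genes on each of these scales except library size alone, where the order turned.

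**Figure D1:**
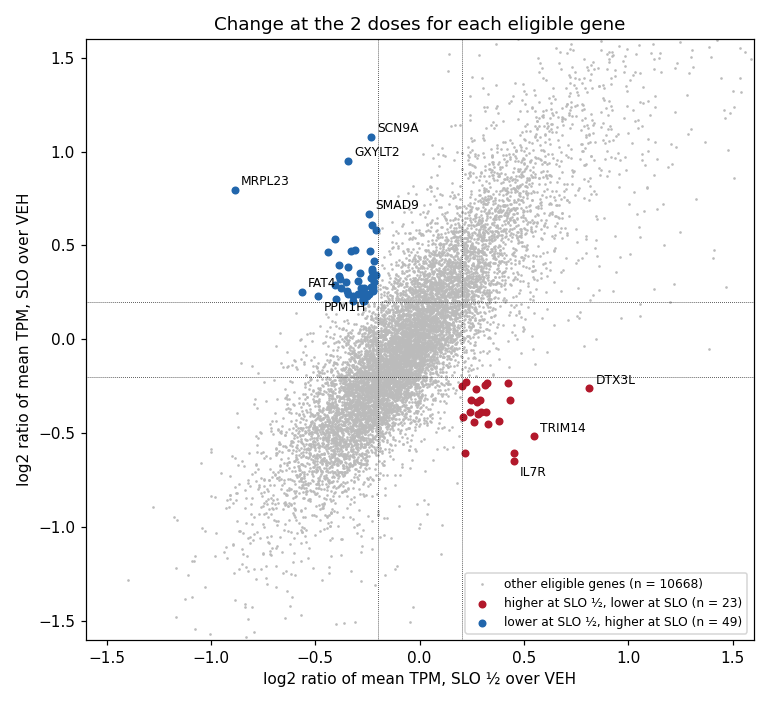
Each point is 1 eligible gene, with the log2 ratio of mean TPM of SLO ½ to VEH on the horizontal axis and of SLO to VEH on the vertical axis, and dotted lines at the 15% limits. The 23 red genes lie at lower right and the 49 blue genes at upper left, both off the diagonal band of the other 10668 genes, and 273 genes beyond 1.6 on either axis are not drawn.

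Calls of the same genes in the edgeR quasi-likelihood fit come from the contrasts that chose them and are given as counts only. Of the 23 genes, 17 were called higher in SLO ½ against VEH, where 26.7% of 14727 tested genes were, 16 were called lower in SLO against VEH (32.1% of tested genes), and all 23 were called lower in SLO against SLO ½ (20.3%). In opposite directions against VEH, 15 of the 23 were called, as were 62 tested genes in all (0.421%). DESeq2 called 38 tested genes in that order, and limma 40 on log2(TPM + 1) and 37 on log2(TPM + 0.1). The last called 11 of the 23 higher at SLO ½, and the share of all tested genes it called there is not given. The 26.7% belongs to the edgeR fit, so these 11 cannot be set against it. Of the 49 genes, 33 were called lower at SLO ½ (25.3%), 44 higher at SLO (32.9%) and all 49 higher in SLO against SLO ½ (20.8%). In opposite directions 33 of the 49 were called, as were 76 tested genes in all (0.516%). A fit without SLO ½ replicate 2 called 48 tested genes in that order, and their overlap with the 76 was not counted. With all 9 libraries, the genes not called in both directions were SH3BP1, MAPK13, SPRED3, PDGFRL, DYRK4, GRAMD1B, FBXO43 and RABAC1 of the 23. Of the 49 they were EIF4E3, GSTA4, CARF, ADGRA2, CRACD, SMAD9, RIMKLA, TTC12, CCDC148, SYDE2, MOXD1, FAM149B1, ACBD7, DIP2C, RNF144A and TRIM2. Calls in opposite directions were thus not confined to the 72 genes. Of the 62, 40 were coding genes whose ratio missed the limit at 1 dose or both, 2 were coding genes of low count and 5 were not coding, and of the 76, 43 were coding genes that missed a limit.

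The TPM of all 3 SLO ½ libraries lay above all VEH libraries, and that of all 3 SLO libraries below them, for 13 of the 23 genes, against 0.41% of eligible genes. For the reverse order this held for 33 of the 49, against 1.49% of eligible genes. The libraries of the 2 doses never overlapped each other in any of the 72 genes. The rule places the doses on opposite sides of VEH, so this largely follows from the selection. Its share over eligible genes was not computed. Where groups did overlap, it was VEH with a dose, as for NTM, SH3BP1, SPRED3, PDGFRL and DTX3L in the first direction and MRPL23, YPEL1, SLC7A11, CARF and ADGRA2 in the second. Within VEH, the highest library of the 49 genes was replicate 1 for 21, replicate 2 for 22 and replicate 3 for 6. Among the 23 genes those numbers were 6, 7 and 10.

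The gene with the largest smaller change among the 23 was TRIM14, a tripartite-motif protein that acts as an adaptor at mitochondria in antiviral signalling. Its TPM was 57.6, 57.6 and 54.7 in VEH, against 83.2, 76.0 and 89.2 in SLO ½ and 44.6, 38.6 and 35.5 in SLO. The 3 groups were far apart, and means were 56.6 ± 1.68 TPM in VEH, against 82.8 ± 6.62 in SLO ½ and 39.6 ± 4.64 in SLO (SD, n = 3). DTX3L, an E3 ubiquitin ligase that works in a complex with the ADP-ribosyltransferase PARP9, was highest at SLO ½ by a wider margin. DTX3L stood at 48.3, 41.6 and 39.0 TPM in VEH, but at 76.2, 68.5 and 81.9 in SLO ½ and 41.9, 32.9 and 32.8 in SLO. Here SLO overlapped VEH at 1 library, and the ratios were 1.76 at SLO ½ and 0.834 at SLO. EIF2AK2 encodes PKR, the kinase that halts translation when it binds double-stranded RNA. In VEH its TPM was 81.6, 82.2 and 77.2, in SLO ½ 101, 85.9 and 104 and in SLO 71.0, 62.3 and 67.7. Its groups did not overlap, with ratios of 1.20 at SLO ½ and 0.834 at SLO.

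All 3 belong to the interferon-stimulated genes, a list on which most genes did not reverse. Of 89 tested genes on this list, edgeR called 84 higher and 1 lower in SLO ½ against VEH, and 62 higher and 8 lower in SLO against VEH. The median log2 fold change was 1.29 at SLO ½ and 0.76 at SLO, where all tested genes had 0.015 and 0.014. Between doses 69 were called lower at SLO and 1 higher. The 8 genes called lower at SLO were TRIM14, DTX3L, EIF2AK2, ADAR, LAP3, NMI, IFITM2 and RNF213. ADAR, the enzyme that edits adenosines in double-stranded RNA, had a mean of 133 TPM in VEH, against 139 in SLO ½ and 107 in SLO, and LAP3, an aminopeptidase, 98.0, 132 and 88.7. Both were called in opposite directions but lay inside the 15% limits at one dose. PARP9 lies beside DTX3L on the opposite strand, and its mean TPM was 9.49 in VEH, against 29.9 in SLO ½ and 11.0 in SLO, so at SLO it was not below VEH. ADAR, LAP3 and PARP9 were chosen after their values were seen.

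**Figure D2:**
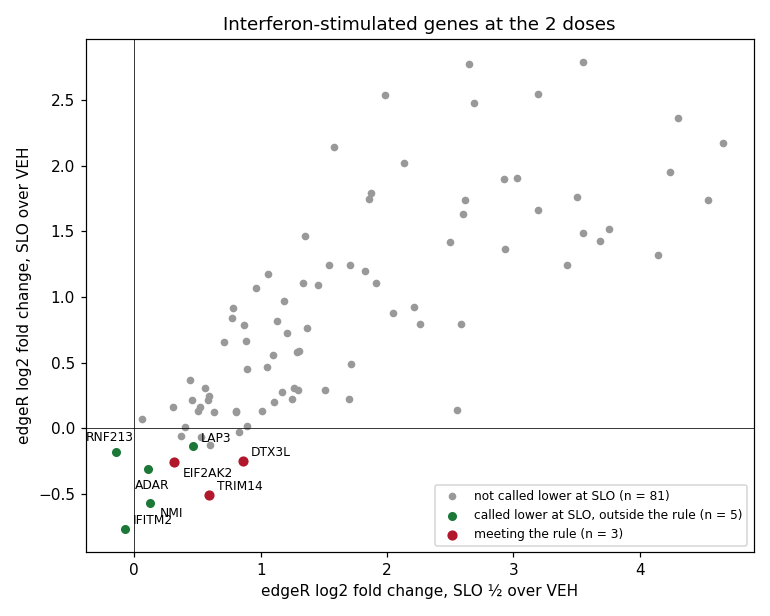
Each point is 1 of 89 tested interferon-stimulated genes, with the edgeR log2 fold change against VEH at SLO ½ on the horizontal axis and at SLO on the vertical axis. Red points are the 3 genes of the set and green points the 5 others called lower at SLO, all below 0 on the vertical axis, 6 of these 8 right of 0 and IFITM2 and RNF213 left of it, while the other 81 spread mainly above 0 on both axes.

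The promoters of these 3 genes share an element of the interferon response. The core of the interferon-stimulated response element was searched on both strands as GAAA, any 2 bases and GAAA, in the 300 bases from 250 before to 50 after the RefSeq start (GRCh38.p14). It was found in 39 of 65 interferon-stimulated promoters (60.0%), in 3.65% of 27305 promoters and in 2.696% of 8865 promoters of eligible genes. Promoters were matched for 13 of the 23 genes and 42 of the 49. The core was in 3 of the 13, the genes just named, and in 1 of the 42, TRIM2, a ubiquitin ligase of neurons. The 30 bases around each match are shown because they place the shared element near the start of the first 3 genes, with the match in capitals and the gene's own strand written 5′ to 3′. In TRIM14 the match lies on the opposite strand and begins 26 bases upstream of the start, in EIF2AK2 and DTX3L it begins 6 bases upstream and crosses the start, and in TRIM2 it begins 217 bases upstream.
TRIM14: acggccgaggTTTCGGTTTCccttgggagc
EIF2AK2: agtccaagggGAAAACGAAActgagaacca
DTX3L: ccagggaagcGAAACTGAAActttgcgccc
TRIM2: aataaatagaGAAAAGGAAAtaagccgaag

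These windows lie at chr9:98119229-98119258 (minus strand), chr2:37156967-37156996 (minus strand), chr3:122564322-122564351 (plus strand) and chr4:153151936-153151965 (plus strand). Of the other 17 motifs searched, the AP-1 site TGANTCA was in 3 of the 13 promoters (23.1%) and 2 of the 42 (4.76%), where 3.85% of eligible promoters hold it. It does not overlap the interferon core in any member. The 3 genes of the first direction were SPRED3, FST and DYRK4, and their sites are shown because no other motif but the interferon core exceeded its eligible share as far in these 13 promoters.
SPRED3: ccgttgctgggTGACTCAgtgagctttgca
FST: gaaatgtcaccTGATTCAcactgaactttt
DYRK4: tctctatatatTGACTCAtttacctcacaa

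These lie at chr19:38389720-38389749 (plus strand), chr5:53480458-53480487 (plus strand) and chr12:4589976-4590005 (plus strand), beginning 60, 160 and 91 bases upstream of the start. The GC box GGGCGG was in 7 of 13 and 33 of 42 promoters (53.8% and 78.6%, eligible 72.6%), and the EGR1 site GCGGGGGCG, which can overlap it, in 2 of 13 and 8 of 42 (15.4% and 19.0%, eligible 8.70%). The ETS site CCGGAAG was in 0 of 13 and 2 of 42 promoters (0% and 4.76%), where 21.0% of eligible promoters hold it. Such matches are a description of letters, the search was made with the values known, and binding was not measured.

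IL7R, the receptor chain for interleukin-7, is known from lymphocytes. The VEH libraries had 70.8, 75.5 and 76.8 TPM, the SLO ½ libraries 96.7, 102 and 107, and the SLO libraries 46.2, 47.0 and 49.2. No library of one group reached another, and the ratios were 1.37 at SLO ½ and 0.638 at SLO. SRGN encodes serglycin, a proteoglycan core protein of secretory granules, and was the most abundant gene of either direction. Its TPM was 1437, 1521 and 1677 in VEH, against 1818, 1769 and 1803 in SLO ½ and 1048, 988 and 1011 in SLO. The difference from VEH was larger at SLO, where the ratio was 0.657, than at SLO ½, where it was 1.16. Without VEH replicate 1 SRGN no longer met the rule.

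NTM, an adhesion protein of neurons, was at low level. NTM stood at 3.92, 2.50 and 2.91 TPM in VEH, but at 4.25, 3.91 and 4.61 in SLO ½ and 1.84, 2.45 and 1.83 in SLO. Its SLO ½ libraries overlapped VEH at 1 library, and the ratios were 1.37 at SLO ½ and 0.657 at SLO. CDH13, a cadherin anchored to the membrane by a lipid, had means of 15.3 ± 0.520 TPM in VEH, against 20.5 ± 0.994 in SLO ½ and 13.0 ± 0.907 in SLO (SD, n = 3), and its groups did not overlap, though GENCODE places other genes, HSBP1 among them, on the same strand within its span. PDGFRL, a secreted protein resembling a growth factor receptor, had means of 8.83 ± 0.330 TPM in VEH, against 10.8 ± 2.18 in SLO ½ and 7.07 ± 0.707 in SLO (SD, n = 3), and 1 SLO ½ library at 8.38 TPM lay below all 3 VEH libraries.

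**Figure D3:**
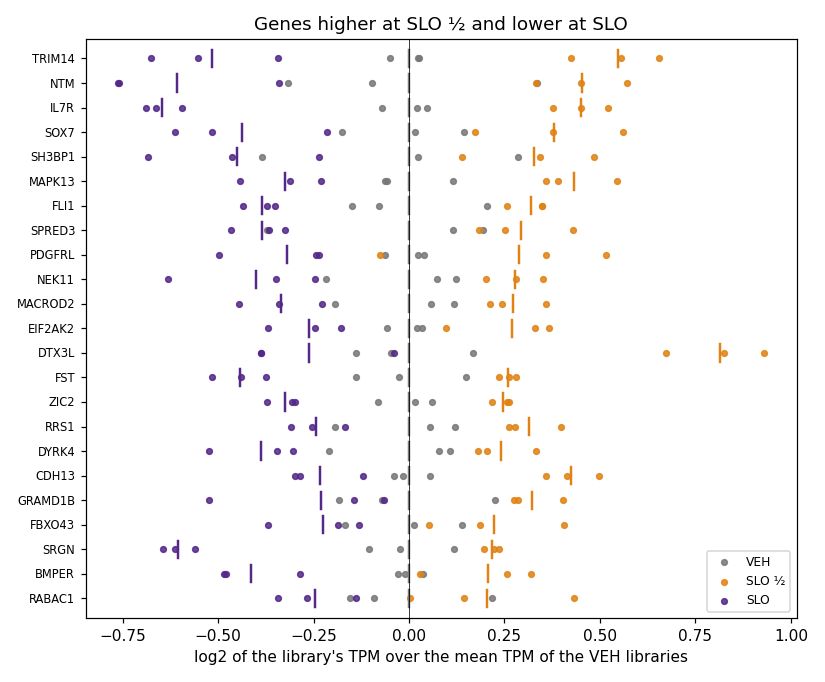
Each row is 1 of the 23 genes higher at SLO ½ and lower at SLO, ordered by the smaller of their 2 changes with the largest on top, and each point is the log2 of 1 library's TPM over the VEH mean. Vertical strokes are group means of 3 libraries; orange SLO ½ points lie to the right and violet SLO points to the left of 0, except 1 SLO ½ library of PDGFRL, with grey VEH points around 0.

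FST and BMPER both bind ligands of the TGF-beta superfamily outside the cell. FST encodes follistatin, which neutralizes activins. In VEH its TPM was 58.4, 53.9 and 66.0, in SLO ½ 71.2, 69.9 and 72.2 and in SLO 43.8, 45.8 and 41.6. Its groups did not overlap, and the means were 59.4 ± 6.08 TPM in VEH, against 71.1 ± 1.116 in SLO ½ and 43.7 ± 2.11 in SLO (SD, n = 3). BMPER, a secreted modulator of BMPs, had means of 8.17 ± 0.187 TPM in VEH, against 9.44 ± 0.973 in SLO ½ and 6.14 ± 0.498 in SLO (SD, n = 3). One SLO ½ library, at 8.34 TPM, lay within the VEH range of 8.02 to 8.38, and BMPER was next to the limit with a ratio of 1.155 at SLO ½.

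On the receiving side of signalling by this superfamily 2 genes had the reverse order, though most of their relatives did not reverse, as given below. ID2, a helix-loop-helix protein that blocks other transcription factors and is a known BMP target, had the highest TPM of the 49 genes. The VEH libraries had 137, 148 and 134 TPM, the SLO ½ libraries 119, 109.6 and 112, and the SLO libraries 177, 173 and 170.4. The groups were separate, with means of 139.6 ± 7.12 TPM in VEH, against 114 ± 5.12 in SLO ½ and 173 ± 3.37 in SLO (SD, n = 3). SMAD9, a receptor-regulated SMAD of the BMP branch, differed from VEH mainly at SLO. Its TPM was 11.6, 12.9 and 10.8 in VEH, against 9.54, 10.1 and 10.1 in SLO ½ and 18.5, 18.7 and 18.8 in SLO. Its ratio was 0.845 at SLO ½, which edgeR did not call, and 1.59 at SLO. SMAD9 did not meet the rule with CPM scaled by TMM factors or by library size, with median-centred ratios, or without VEH replicate 2.

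Of 57 tested TGF-beta and BMP genes, edgeR called 31 higher and 12 lower in SLO ½ against VEH, and 35 higher and 14 lower in SLO against VEH, with median log2 fold changes of 0.25 and 0.30. ID1 and ID3, the close relatives of ID2, did not reverse. ID1 had mean TPM of 120.3 in VEH, against 186 in SLO ½ and 281 in SLO, and ID3 had 153, 222 and 263. THBS1, a matrix protein that activates latent TGF-beta, was called in opposite directions at 975, 1166 and 876 TPM but lay inside the limits at SLO. Other secreted antagonists and SMADs of the BMP branch stayed on 1 side of VEH. In VEH, SLO ½ and SLO, mean TPM was 59.7, 34.2 and 22.2 for NOG and 110, 170 and 183 for GREM1. FSTL3 had 62.7, 98.1 and 152, SMAD1 10.7, 8.84 and 8.84, and SMAD5 117, 89.4 and 102. All the genes of this paragraph were chosen after their values were seen.

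**Figure D4:**
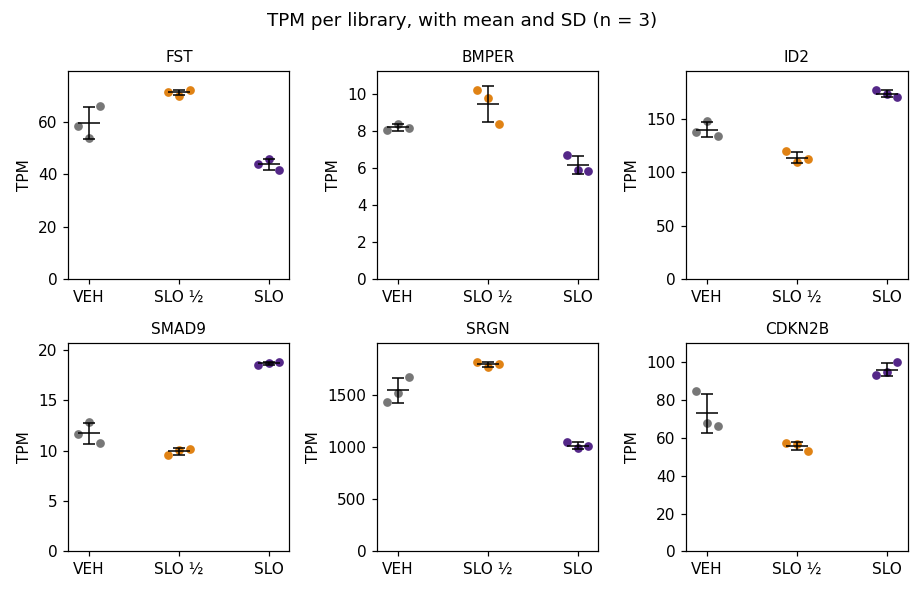
TPM of FST, BMPER, ID2, SMAD9, SRGN and CDKN2B in each library (points) with the mean and SD of 3 libraries (black bars), from 0, for VEH, SLO ½ and SLO. FST, BMPER and SRGN are highest at SLO ½ and lowest at SLO, and ID2, SMAD9 and CDKN2B lowest at SLO ½ and highest at SLO.

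Transcription factors among the 23 genes were SOX7, FLI1 and ZIC2. SOX7, a SOX-family factor of endoderm and vessels, had means of 5.63 ± 0.619 TPM in VEH, against 7.32 ± 0.981 in SLO ½ and 4.16 ± 0.618 in SLO (SD, n = 3). FLI1, an ETS factor of blood and endothelial cells, had means of 8.69 ± 1.17 TPM in VEH, against 10.8 ± 0.391 in SLO ½ and 6.66 ± 0.202 in SLO (SD, n = 3). ZIC2, a zinc finger factor of the developing nervous system, had means of 20.7 ± 1.03 TPM in VEH, against 24.5 ± 0.404 in SLO ½ and 16.5 ± 0.460 in SLO (SD, n = 3). All 3 had groups that did not overlap. SOX7 shares its strand with the span of PINX1, and reads that fell in exons of both would have been counted for neither.

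Signalling proteins formed the next group. MAPK13, the p38-delta kinase, had means of 3.30 ± 0.237 TPM in VEH, against 4.46 ± 0.313 in SLO ½ and 2.64 ± 0.194 in SLO (SD, n = 3), with separate groups. At SLO edgeR did not call MAPK13. SH3BP1, a GTPase-activating protein for Rac, had means of 2.98 ± 0.677 TPM in VEH, against 3.74 ± 0.445 in SLO ½ and 2.18 ± 0.339 in SLO (SD, n = 3), and 1 VEH library at 3.63 TPM lay above the lowest SLO ½ library at 3.28, while another at 2.28 lay within SLO. SPRED3, an inhibitor of the Ras and ERK cascade, had means of 2.94 ± 0.586 TPM in VEH, against 3.60 ± 0.322 in SLO ½ and 2.25 ± 0.112 in SLO (SD, n = 3), where VEH replicate 2 fell within SLO and VEH replicate 3 within SLO ½. NEK11, a kinase of the DNA damage checkpoint, had means of 5.67 ± 0.697 TPM in VEH, against 6.88 ± 0.357 in SLO ½ and 4.30 ± 0.576 in SLO (SD, n = 3). DYRK4, another protein kinase, was the least abundant of these, at means of 2.28 ± 0.267 TPM in VEH, against 2.699 ± 0.155 in SLO ½ and 1.75 ± 0.138 in SLO (SD, n = 3). MACROD2, a hydrolase that removes ADP-ribose from proteins, had means of 3.75 ± 0.418 TPM in VEH, against 4.54 ± 0.248 in SLO ½ and 2.98 ± 0.224 in SLO (SD, n = 3).

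The remaining 4 genes were close to the limits. RRS1, a factor of ribosome assembly, had ratios of 1.24 at SLO ½ and 0.845 at SLO, and GRAMD1B, a carrier of cholesterol between membranes, 1.2498 at SLO ½ and 0.852 at SLO. FBXO43, an inhibitor of the anaphase-promoting complex, had 1.17 at SLO ½ and 0.856 at SLO, and RABAC1, a prenylated Rab acceptor, 1.152 at SLO ½ and 0.843 at SLO. In each of the 4 at least 1 library of a dose overlapped VEH. Just outside the limits lay FMNL1, with ratios of 1.147 and 0.739, and SLC25A32, with 1.21 and 0.873.

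Among the 49 genes lower at SLO ½ and higher at SLO, MRPL23 had the largest smaller change. It encodes a protein of the large subunit of the mitochondrial ribosome. MRPL23 stood at 12.7, 3.96 and 5.06 TPM in VEH, but at 4.04, 3.88 and 3.81 in SLO ½ and 12.6, 11.5 and 13.6 in SLO. VEH replicate 1 was at the level of SLO and VEH replicates 2 and 3 near that of SLO ½, so the 2 doses were clear of each other but not of VEH. Its ratios were 0.541 and 1.74, and it was the only one of 74 eligible mitochondrial ribosomal protein genes in the set. Of those 74, edgeR called 7 higher and 26 lower at SLO ½, and 5 higher and 48 lower at SLO, so a level above VEH at SLO was uncommon in this family. Without VEH replicate 1 MRPL23 had log2 ratios of -0.20 at SLO ½ and 1.48 at SLO. Both were still past the limits, but only just at SLO ½.

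Cell-cycle control was represented by CDKN2B, which encodes p15, an inhibitor of CDK4 and CDK6 that is linked to senescence and to TGF-beta. In VEH its TPM was 84.9, 67.7 and 66.3, in SLO ½ 57.5, 56.6 and 53.3 and in SLO 93.3, 95.0 and 100.2. VEH replicate 1 was the highest of its group, yet no library of SLO ½ or SLO reached VEH. The means were 73.0 ± 10.3 TPM in VEH, against 55.8 ± 2.20 in SLO ½ and 96.2 ± 3.57 in SLO (SD, n = 3). An antisense gene, CDKN2B-AS1, lies across it, and the counts were made by strand.

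SLC7A11 and GSTA4 act against oxidative stress. SLC7A11 is the cystine importer that feeds glutathione synthesis. The VEH libraries had 15.9, 18.03 and 13.4 TPM, the SLO ½ libraries 12.5, 11.4 and 13.7, and the SLO libraries 19.1, 22.1 and 24.4. One SLO ½ library lay above the lowest VEH library, and the ratios were 0.796 at SLO ½ and 1.39 at SLO. GSTA4, a glutathione transferase for lipid aldehydes, did not overlap between groups. Its TPM was 11.3, 9.44 and 8.10 in VEH, against 7.34, 7.82 and 6.58 in SLO ½ and 13.1, 13.2 and 15.4 in SLO. Its ratios were 0.754 at SLO ½, which edgeR did not call, and 1.45 at SLO. Of 45 tested NRF2 target genes, a list that holds SLC7A11, edgeR called 20 higher and 7 lower at SLO ½ and 23 higher and 9 lower at SLO. Of 53 genes of the integrated stress response, which also holds SLC7A11, 11 were called higher and 26 lower at SLO ½ and 20 higher and 23 lower at SLO.

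**Figure D5:**
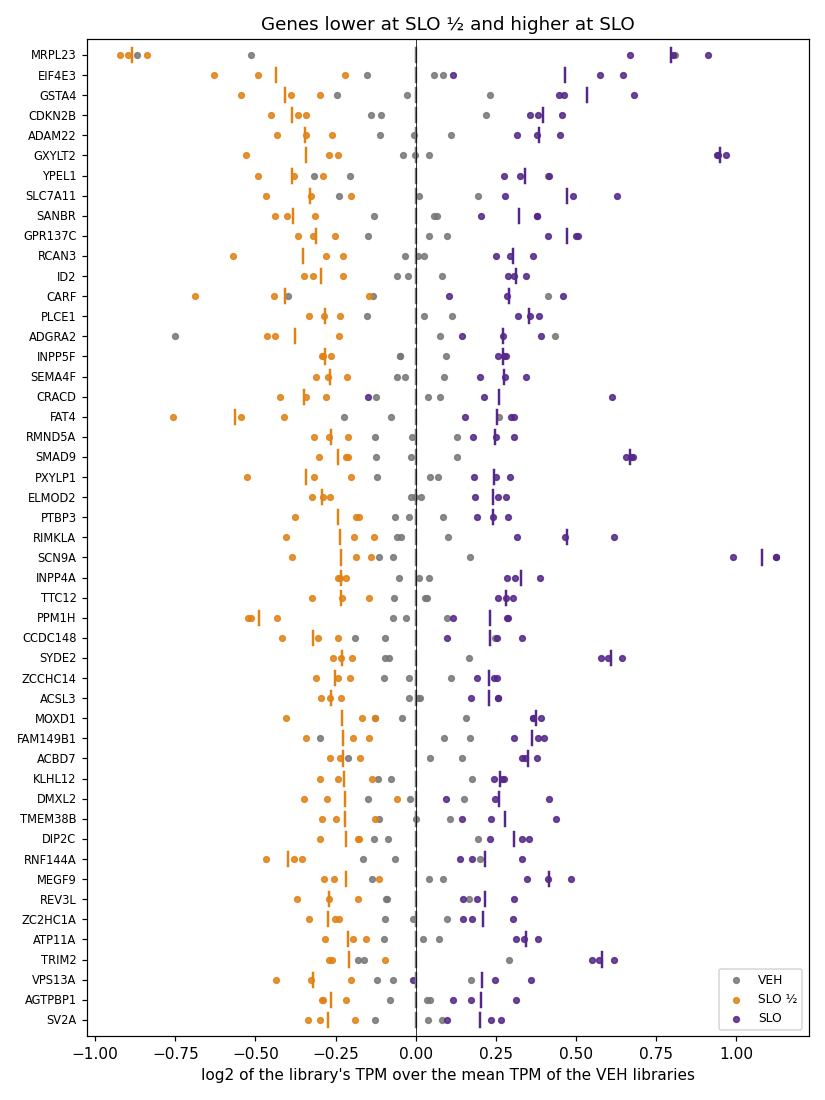
Each row is 1 of the 49 genes lower at SLO ½ and higher at SLO, ordered by the smaller of their 2 changes with the largest on top, and each point is the log2 of 1 library's TPM over the VEH mean. Strokes are means of 3 libraries; orange SLO ½ points lie left and violet SLO points right of 0, except 1 SLO library each of CRACD and VPS13A, and the grey VEH points of MRPL23 and ADGRA2 are spread widest.

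For several of the 49 genes the ratio lay farther from VEH at SLO than at SLO ½. SCN9A, the voltage-gated sodium channel Nav1.7 of sensory neurons, had the highest ratio at SLO. SCN9A stood at 8.46, 10.3 and 8.72 TPM in VEH, but at 8.04, 7.01 and 8.31 in SLO ½ and 19.9, 18.2 and 19.9 in SLO. Its ratio was 0.850 at SLO ½, where the smallest VEH library and the highest SLO ½ library were 8.46 and 8.31 TPM, and 2.11 at SLO. GXYLT2, which adds xylose to glucose on Notch receptors, overlaps other genes on its strand in GENCODE, PPP4R2 among them. It had means of 9.77 ± 0.269 TPM in VEH, against 7.70 ± 0.822 in SLO ½ and 18.9 ± 0.200 in SLO (SD, n = 3) and groups far apart. TRIM2, with ratios of 0.866 at SLO ½ and 1.495 at SLO, SYDE2, a GTPase-activating protein, with 0.853 at SLO ½ and 1.52 at SLO, and RIMKLA, which makes the neuronal dipeptide N-acetylaspartylglutamate, with 0.848 at SLO ½ and 1.39 at SLO, had the same shape. All of these but GXYLT2 left the set when counts were scaled by TMM factors. TRIM2 also left it under each of the other 7 calculations of the ratio.

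Other genes lay farther from VEH at SLO ½ than at SLO. FAT4, a giant cadherin that acts upstream of the Hippo pathway, had means of 13.6 ± 2.39 TPM in VEH, against 9.20 ± 1.09 in SLO ½ and 16.2 ± 0.955 in SLO (SD, n = 3), and PPM1H, a phosphatase that acts on Rab proteins, means of 26.6 ± 1.66 TPM in VEH, against 19.0 ± 0.655 in SLO ½ and 31.3 ± 2.10 in SLO (SD, n = 3). FAT4 at SLO overlapped VEH, since VEH replicate 2 was at 16.3 TPM. RNF144A, a ubiquitin ligase, had ratios of 0.758 at SLO ½ and 1.16 at SLO.

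ADAM22, a catalytically inactive disintegrin of synapses, had means of 4.31 ± 0.330 TPM in VEH, against 3.40 ± 0.201 in SLO ½ and 5.62 ± 0.262 in SLO (SD, n = 3). GPR137C, a membrane protein of the GPR137 family, had means of 9.76 ± 0.858 TPM in VEH, against 7.87 ± 0.312 in SLO ½ and 13.6 ± 0.484 in SLO (SD, n = 3). In both, the groups did not overlap. ADGRA2, an adhesion receptor that aids WNT7 signalling in brain vessels, had means of 4.40 ± 1.68 TPM in VEH, against 3.39 ± 0.296 in SLO ½ and 5.31 ± 0.455 in SLO (SD, n = 3), and its VEH libraries alone ran from 2.61 to 5.94 TPM, wider than the difference between doses. SEMA4F, a semaphorin, had ratios of 0.832 at SLO ½ and 1.21 at SLO, TMEM38B, a cation channel of the endoplasmic reticulum, 0.858 at SLO ½ and 1.21 at SLO, and SV2A, the synaptic vesicle protein, 0.827 at SLO ½ and 1.1503 at SLO. SV2A and AGTPBP1, a deglutamylase of tubulin, were just inside the limits, AGTPBP1 with 0.832 at SLO ½ and 1.151 at SLO. Just outside were TSPAN33, with 0.875 and 1.48, and HSDL1, with 0.860 and 1.14.

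Phosphoinositide and membrane lipid enzymes were another group. PLCE1, a phospholipase C that responds to Ras, had means of 5.21 ± 0.477 TPM in VEH, against 4.28 ± 0.143 in SLO ½ and 6.65 ± 0.148 in SLO (SD, n = 3). INPP5F and INPP4A remove phosphates from phosphoinositides, and had ratios of 0.822 at SLO ½ and 1.21 at SLO and of 0.851 at SLO ½ and 1.26 at SLO. ACSL3, which activates long-chain fatty acids at lipid droplets, had 0.832 at SLO ½ and 1.17 at SLO. VPS13A, which transfers lipids between organelles, had 0.801 at SLO ½ and 1.154 at SLO, and ATP11A, a lipid flippase, 0.864 at SLO ½ and 1.27 at SLO. Groups were separate in all of these but VPS13A. No gene of the 51 tested cholesterol and fatty acid synthesis genes was in the set.

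Regulators of RNA and transcription included EIF4E3, a cap-binding protein of the eIF4E family. In VEH its TPM was 1.34, 1.32 and 1.14, in SLO ½ 1.09, 0.902 and 0.819 and in SLO 1.89, 1.38 and 1.99. Its level was low, with a mean TPM of 1.27 in VEH, but its groups did not overlap, and edgeR did not call it at SLO ½. GENCODE places another gene without a symbol on its strand, so its value is less certain. PTBP3, a splicing repressor, had means of 94.6 ± 5.14 TPM in VEH, against 79.9 ± 6.15 in SLO ½ and 112 ± 3.78 in SLO (SD, n = 3). SANBR, a BTB-domain protein of class switch recombination, had means of 11.7 ± 0.884 TPM in VEH, against 8.97 ± 0.400 in SLO ½ and 14.6 ± 1.00 in SLO (SD, n = 3). CARF, a calcium-responsive transcription factor, had means of 1.54 ± 0.457 TPM in VEH, against 1.16 ± 0.220 in SLO ½ and 1.89 ± 0.231 in SLO (SD, n = 3). A VEH library at 2.05 TPM lay within the SLO range and another at 1.17 TPM within the SLO ½ range. YPEL1, a small conserved protein, had means of 10.8 ± 3.10 TPM in VEH, against 8.24 ± 0.579 in SLO ½ and 13.6 ± 0.669 in SLO (SD, n = 3). VEH replicate 1, at 14.3 TPM, was inside the SLO range, and VEH replicate 3, at 8.64 TPM, inside the SLO ½ range. RCAN3, an inhibitor of calcineurin, had means of 17.7 ± 0.381 TPM in VEH, against 13.8 ± 1.70 in SLO ½ and 21.8 ± 0.884 in SLO (SD, n = 3) with separate groups. REV3L, the catalytic subunit of the translesion polymerase zeta, had ratios of 0.828 at SLO ½ and 1.16 at SLO, with a VEH library at 15.8 TPM within the SLO range. It was the only one of 91 eligible DNA repair genes in the set.

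Protein turnover was represented by RMND5A, a subunit of a ubiquitin ligase complex, with ratios of 0.832 at SLO ½ and 1.19 at SLO, and KLHL12, a CUL3 adaptor that ubiquitinates SEC31 in collagen export, with 0.856 at SLO ½ and 1.20 at SLO. The other 13 of the 49 genes included CRACD, which restrains actin capping protein, PXYLP1, a phosphatase of glycosaminoglycan synthesis, ELMOD2, a GTPase-activating protein for Arf, TTC12, an assembly factor of ciliary dynein, DMXL2, a regulator of the vacuolar proton pump, and ACBD7, a binder of acyl-CoA. The rest were CCDC148, ZCCHC14, MOXD1, FAM149B1, DIP2C, MEGF9 and ZC2HC1A. Over the 13, ratios to VEH ran from 0.786 to 0.860 at SLO ½ and from 1.16 to 1.33 at SLO. Of the 72 genes, 47 are named by the rule on size of change and lists, and the other 25 were named after their values were seen, to account for each gene.

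Several features that the rule did not use are given as medians and counts. Median length of the longest coding transcript in GENCODE v44 was 3272 bases for the 23 genes, 6075 for the 49 and 3766 for eligible genes. Median gene span was 26909, 83698 and 35751 bases. Median mean counts were 155, 405 and 654, and the median SD of log2 TPM within groups was 0.12, 0.11 and 0.076, so counts were lower and the spread larger, by their medians, than over eligible genes. Of the 49 genes, 10 (20.4%) lie on chromosome 2, which holds 6.83% of eligible genes, and of the 23 genes 4 (17.4%) lie on chromosome 8, which holds 3.45%. Within 2000000 bases of each other lay RNF144A and ID2, 1610559 bases apart, and EIF4E3 and GXYLT2, 1133273 bases apart. None of these features was tested.

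Of 40 gene lists examined, 15 held at least 1 of the 72 genes, and 26 of the 72 were on a list. Lists with many changes at both doses but no gene in the set included G2/M and mitosis genes (98 eligible), cytosolic ribosomal proteins (82), lysosome genes (76), S phase and replication genes (73), SASP factors (44) and p53 target genes (36). With 0.67% of all eligible genes in the set, lists of such sizes would hold few or none. Nothing is therefore read from these empty lists, nor from the lists above with 1 member. The largest list without a member was that of zinc finger genes, with 482 eligible.

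Membership depended on single libraries for many genes. Of the 23 genes, 9 stayed in the set with each of the 9 libraries left out in turn, 12 under each of 8 other ways of computing the ratio, and 7 under all 17. Those 7 were TRIM14, NTM, IL7R, SOX7, MAPK13, FLI1 and ZIC2. Of the 49, 17, 15 and 11 did so, and the 11 were MRPL23, EIF4E3, GSTA4, CDKN2B, ADAM22, GXYLT2, SLC7A11, SANBR, GPR137C, RCAN3 and ID2. Among these genes, MAPK13, EIF4E3 and GSTA4 were not called by edgeR at both doses. In NTM, MRPL23 and SLC7A11 libraries of a dose overlapped VEH. Without VEH replicate 1, MRPL23 stayed only just past the limit at SLO ½.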

How the data were processed

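RNA of HMC3 cells was measured in 9 libraries of polyadenylated RNA, 3 per group. The authors trimmed reads with Trimmomatic 0.38, aligned them to GRCh38 and counted them per gene and strand with STAR 2.7.1a, and the deposited counts are whole numbers without normalization. The deposited TPM were made by the authors from the same alignments, and the annotation release and the gene length behind them are not given in the sources used here. The count table has 4 summary lines without a gene, which were left out: reads outside genes (5.54% to 8.38%), matching several places (7.16% to 8.52%), ambiguous (3.03% to 3.26%) and unmapped (0.883% to 0.984%). Each library held 14834295 to 19674841 reads on genes, and mitochondrial transcripts took 1.30% to 3.12% of them.

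The 72 genes were selected on group means of TPM. The authors' category column lists all transcript classes of a gene, and a gene was taken as coding when protein_coding was among them. Members and gene lists were chosen with earlier results of these data known. Counts were fitted with edgeR 4.0.16 in R 4.3.3 (filterByExpr, TMM, quasi-likelihood, 14727 genes, 3 groups and no other term), with Benjamini-Hochberg adjustment over all tested genes and a call at adjusted p below 0.05. Genes were named by the smaller of their 2 absolute log2 ratios (the 15 largest per direction), by list (up to 3 per list and direction) and by nearness to the limits. Groups were read from the sample titles. Same-numbered libraries of different groups had deviations that correlated at 0.0028 to 0.087, and different-numbered ones at -0.062 to 0.037. The same-numbered values were thus somewhat higher, but all were small, and numbers were not taken as pairs. Results with the replicate number as a block are given below. Alternatives used limma 3.58.1 and DESeq2 1.42.0. Promoters are from RefSeq (GRCh38.p14), and gene spans and transcripts from GENCODE v44.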

Additional observations from a re-analysis of the deposited data

How the results depend on the processing

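The counts of 23 and 49 genes depended most on the limits. They were 57 and 132 at a ratio limit of 10%, 6 and 9 at 25%, and 0 and 1 at 50%. They were 59 and 81 at a mean count of at least 10, 179 and 226 with no minimum count, and 11 and 36 at 200 or more. Library size alone gave 28 in the second direction. Taking protein_coding as the only category of a gene, an alternative chosen after seeing the data, gave 3 and 8 of 1451 eligible genes. With each library left out the counts ran from 22 to 27 and from 45 to 56. The replicate block, as ratios within a replicate number, gave 23 and 47, and changed no call count by over 1.5 times. Of all tested genes, 62 were called higher at SLO ½ and lower at SLO in the edgeR fit, 38 with DESeq2, 40 with limma on log2(TPM + 1) and 37 with limma on log2(TPM + 0.1). In the last setting 11 of the 23 genes were called higher at SLO ½, without a share of all tested genes to set beside them. The reverse order, called for 76 genes, gave 48 to 74 with a library left out. Of 1632 ratios of named genes under other settings, 1614 moved by less than a limit, 18 moved by more and none reversed. That limit was the SD of a log2 difference between 1 library of the dose and 1 of VEH. It is wide for a mean of 3 libraries, and leaving out 1 library can hardly exceed it, so the 1614 do not measure stability. The cause of these differences was not tested. Depth limits the genes of low count most: mean counts of the set began at 50.6.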

Other observations

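The same rule was applied to 616 genes that are not coding and have a mean count of at least 50. It found 8 that were higher at SLO ½ and lower at SLO, and 3 with the reverse order. SFTA1P, a long noncoding RNA, had 12.4, 10.8 and 14.9 TPM in VEH, 13.96, 15.7 and 16.6 in SLO ½ and 9.27, 10.0 and 9.97 in SLO, so its SLO ½ libraries overlapped VEH and its SLO libraries lay below. DGCR11, another long noncoding RNA, had 14.5 to 16.4 TPM in VEH, 17.2, 17.5 and 18.4 in SLO ½ and 11.4, 11.3 and 11.4 in SLO, with no overlap. MT1L, a metallothionein pseudogene that shares sequence with its coding relatives, had 83.7, 81.6 and 95.3 TPM in VEH, 97.7, 101 and 110 in SLO ½ and 67.5, 63.1 and 81.2 in SLO, and its value is uncertain for that reason. UBE2Q2P2, a pseudogene, had ratios of 0.820 at SLO ½ and 1.26 at SLO, with overlapping libraries. These genes were chosen after their values were seen.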
